A study of Rattus norvegicus with 8 samples.

Results

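The HOX cluster genes are the rows of the deposited count table whose name is Hox, a letter a to d and a number. There were 35 such rows among 37209 gene rows, 10 of the HOXA cluster, 10 of HOXB, 8 of HOXC and 7 of HOXD. Of these, 13 rows had no count in any library, 11 had counts but too few for the test, and 11 were tested. The libraries were made from total RNA of whole veins of Sprague Dawley rats, 1 week after a vein graft operation. In the graft group (graft vein, n = 4) the left common carotid artery had been cut through and its ends turned over short cuffs for a vein graft. The control group (control vein, n = 4) was the contralateral jugular vein from the same animals. The labels give no genotype, added agent, age or sex, and each library is a mixture of all cells of the vessel wall and what adheres to it. In such bulk samples fewer cells of a type and less RNA per cell cannot be told apart.

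HOX genes encode transcription factors that bind DNA through a homeodomain. In mammals they lie in clusters on separate chromosomes, and genes of different clusters that share a number (paralogues) descend from one ancestral gene. Low numbers are used toward the head and high numbers toward the tail and the ends of the limbs, and adult fibroblasts, smooth muscle and other stromal cells keep a HOX pattern that reflects where in the body they arose. HOX proteins gain specificity by binding DNA together with PBX, MEIS and PKNOX proteins. Retinoic acid opens the low-numbered end of a cluster in the embryo, while Polycomb proteins keep unused HOX genes silent and the MLL complexes keep used ones active.

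The 3 HOX genes with a listed promoter that passed the test as lower in grafts, and their neighbour Hoxd8, are shown here by the 250 bases before their RefSeq start site (build GRCr8, plus strand of the chromosome in each case), because Hoxd8, Hoxd9 and Hoxd10 lie side by side and fell together. The sites are chr7:136048809-136049058 for Hoxc4, chr3:80014973-80015222 for Hoxd8, chr3:80007756-80008005 for Hoxd9 and chr3:80001697-80001946 for Hoxd10. Capitals mark the CCAAT box, searched as CCAAT on both strands.
Hoxc4: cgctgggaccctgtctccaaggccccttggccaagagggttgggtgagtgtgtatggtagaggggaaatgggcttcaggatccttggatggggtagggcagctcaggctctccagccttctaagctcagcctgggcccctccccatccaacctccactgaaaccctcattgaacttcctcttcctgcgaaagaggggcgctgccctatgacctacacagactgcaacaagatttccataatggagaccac
Hoxd8: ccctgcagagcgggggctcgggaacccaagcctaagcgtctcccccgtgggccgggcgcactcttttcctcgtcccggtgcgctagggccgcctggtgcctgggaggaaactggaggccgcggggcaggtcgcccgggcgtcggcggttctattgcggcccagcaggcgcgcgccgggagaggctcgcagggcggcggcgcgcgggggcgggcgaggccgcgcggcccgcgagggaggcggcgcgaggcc
Hoxd9: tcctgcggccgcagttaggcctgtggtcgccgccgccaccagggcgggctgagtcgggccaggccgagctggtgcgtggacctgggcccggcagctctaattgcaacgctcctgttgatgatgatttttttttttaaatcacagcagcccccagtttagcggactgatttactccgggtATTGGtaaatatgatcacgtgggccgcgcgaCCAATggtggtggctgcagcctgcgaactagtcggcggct
Hoxd10: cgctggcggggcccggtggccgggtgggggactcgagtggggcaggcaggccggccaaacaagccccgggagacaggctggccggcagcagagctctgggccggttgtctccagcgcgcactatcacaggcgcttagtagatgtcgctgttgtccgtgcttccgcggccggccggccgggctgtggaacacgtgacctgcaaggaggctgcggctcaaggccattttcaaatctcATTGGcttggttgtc
Hoxd9 held 2 CCAAT boxes and Hoxd10 1, Hoxd8 and Hoxc4 held none, and 34.0% of the 33469 promoters in the RefSeq table hold at least 1 in this window. CpG dinucleotides numbered 38 in Hoxd8, 20 in Hoxd9, 21 in Hoxd10 and 3 in Hoxc4, against a median of 5 over all promoters. None of the 4 windows held the HOX and PBX composite motif TGATNNAT (both strands; 7.96% of all promoters), the homeodomain core TTAATTA (2.75%), the TATA box TATAAA (12.9%) or the spaced direct repeat bound by retinoic acid receptors (0.0508%). The motifs do not overlap in these windows, and a match or its absence says only which letters are there. The RefSeq table listed a promoter for 17 of the 35 HOX rows and for 5 of the 11 tested ones.

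Total counts per library ran from 5981520 (control 4) to 16061189 (graft 1), and 3 counts in a library correspond to 0.182 to 0.56 CPM (counts relative to library size, scaled by TMM factors). Over all libraries the HOX rows chosen by name summed to 7861 counts. A HOX gene is thus a low-count gene here, and single values carry counting error. The extraction text in the labels names prefrontal cortex, whereas tissue and titles name veins. The 8 neuron markers summed to 2.55 to 6.49 CPM in every library, with Neurod6 at 0, while the 8 smooth muscle markers summed to 13100 to 21700 CPM in controls.

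Grafts held fewer HOX transcripts than control veins, and the clusters differed in how much lower they were. The summed level of the HOX rows chosen by name was, in controls 1 to 4, 118, 110, 97.5 and 88.5 CPM. In grafts 1 to 4 it was 59.7, 58.2, 69.4 and 59.3 CPM, so the groups did not overlap with TMM scaling. With library totals alone they overlap, since control 4 held 474 HOX counts of 5981520 and graft 3 held 868 of 10533451. With Hoxd8, whose row has another name, the sum was 163 ± 11.8 CPM (SD, n = 4) in controls and 83.8 ± 8.58 CPM in grafts, a ratio of 0.515. Of the 11 tested genes, 5 fell (Hoxb2, Hoxc4, Hoxc6, Hoxd9 and Hoxd10) and 0 rose in the quasi-likelihood test of edgeR, with p adjusted over all genes by Benjamini-Hochberg and a threshold of 0.05. In these 5 all grafts were below all controls, as they were for 19.8% of the genes tested. Over all 15464 genes tested, 21.3% fell and 21% rose (42.3% in either direction). At an unadjusted p under 0.05 the edgeR test gave 0 that rose and 6 that fell, DESeq2 gave 0 past its adjusted threshold that rose and 6 that fell, and limma voom also 0 and 6. The median log2 fold change of the tested HOX genes was -1.06, against 0.01 for all genes tested. Scaling by library totals alone moved the median of all genes to 0.23, and under it 5 HOX genes fell and 1, Hoxb3, rose. The 11 genes are those with enough counts and not the whole family. Hoxd10 reached the filter's level in 4 controls and 2 grafts, and so passed the filter through the controls. Hoxb6 reached it in 3 controls and 4 grafts, and the other 9 in every library.

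**Figure D1:**
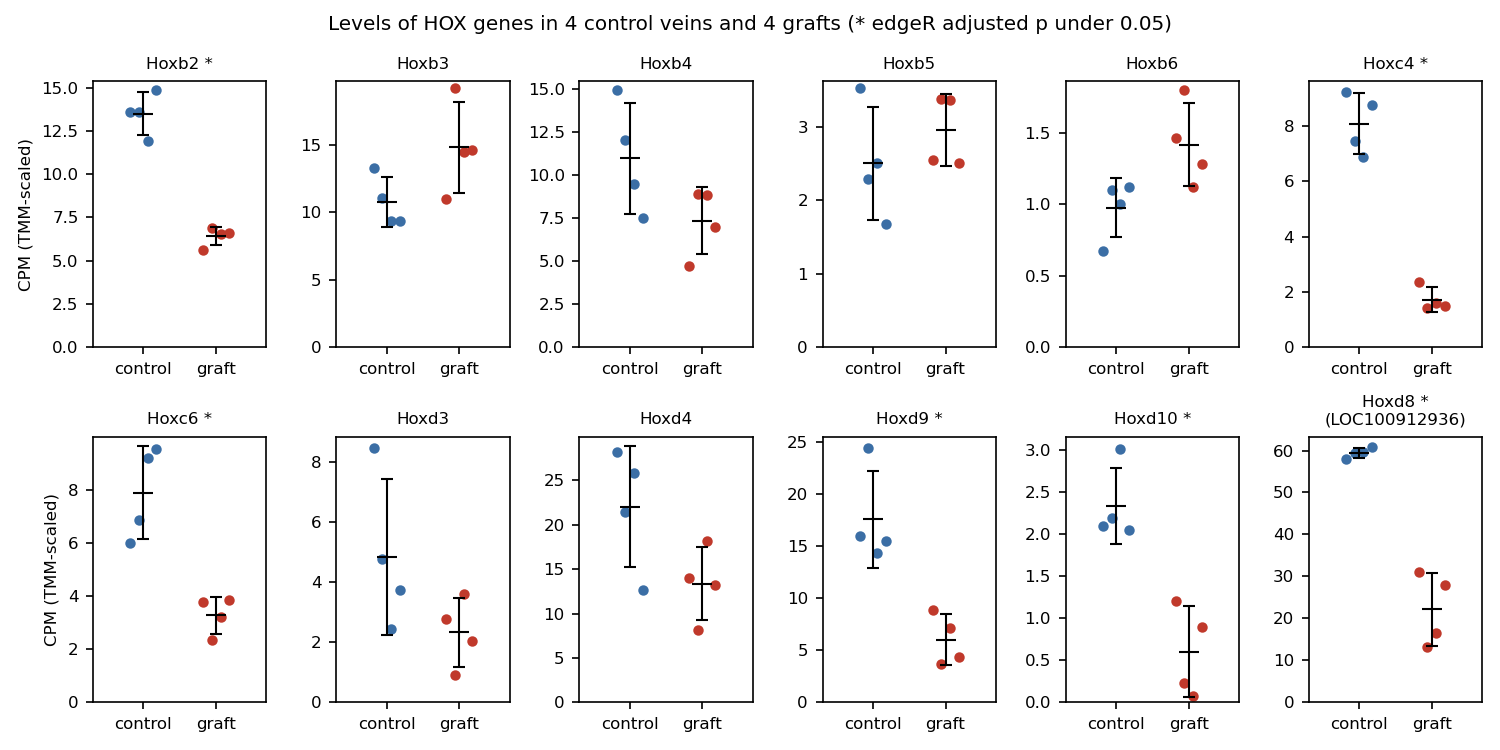
CPM (TMM-scaled, linear axis from 0) of the 11 tested HOX genes and of Hoxd8 in each library, controls in blue and grafts in red, with the mean and SD as black bars (n = 4 per group). For the genes marked with an asterisk all 4 grafts lie below all 4 controls, as for Hoxc4 at 1.43 to 2.37 CPM against 6.86 to 9.21 CPM.

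The HOXC cluster had the largest difference. Its 8 rows summed to 16.6 ± 1.68 CPM (SD, n = 4) in controls and 5.25 ± 0.998 CPM in grafts, a ratio of 0.317. Hoxc4, whose protein acts in neck and upper chest segments, read, in controls 1 to 4, 9.21, 7.47, 6.86 and 8.77 CPM. In grafts 1 to 4 it read 2.37, 1.43, 1.6 and 1.48 CPM, so the highest graft was below the lowest control. Hoxc4 fell, with a log2 change of -2.22 ± 0.25 (SE; adjusted p from edgeR = 0.000152). Hoxc6, a gene of the thoracic region, read, in controls 1 to 4, 5.99, 6.87, 9.2 and 9.52 CPM, against 3.76, 2.33, 3.2 and 3.85 CPM in grafts 1 to 4. Controls 3 and 4 were the high ones, graft 2 was the lowest of all, and the groups did not overlap. Hoxc6 fell, with a log2 change of -1.25 ± 0.25 (SE; adjusted p from edgeR = 0.00359). Hoxc5, between these genes, had 3 to 8 counts in each control and 1 to 4 in each graft and was not tested. In the RefSeq table the Hoxc6 gene spans Hoxc5 and Hoxc4, so reads of these genes can be hard to assign, and their counts are uncertain in that respect. Hoxc8 had 5 counts and Hoxc9 had 1 over all libraries, and Hoxc10, Hoxc12 and Hoxc13 had 0.

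In the HOXD cluster the 7 rows chosen by name summed to 46.8 ± 9.42 CPM (SD, n = 4) in controls and 22.3 ± 7.21 CPM in grafts, a ratio of 0.477. With Hoxd8, whose row has another name, HOXD summed to 106 ± 8.34 CPM (SD, n = 4) in controls and 44.4 ± 13.4 CPM in grafts, a ratio of 0.418. The genes with numbers 9 and 10 fell and those with numbers 3 and 4 did not pass. Hoxd9, which with Hoxd10 is known from the patterning of the trunk's tail end and the limbs, read, in controls 1 to 4, 16, 24.5, 14.4 and 15.5 CPM. In grafts 1 to 4 it read 8.92, 3.68, 7.12 and 4.37 CPM, with no overlap of the groups. Hoxd9 fell, with a log2 change of -1.54 ± 0.31 (SE; adjusted p from edgeR = 0.00338). Hoxd10 had, in controls 1 to 4, 28, 22, 36 and 11 counts, against 20, 3, 1 and 14 in grafts 1 to 4, or 2.34 ± 0.453 against 0.604 ± 0.541 CPM (SD, n = 4). Grafts 2 and 3 were near the floor and grafts 1 and 4 held between them most of the graft counts. The Hoxd10 change of -1.90 ± 0.61 (log2, SE; adjusted p from edgeR = 0.0314) was a fall that did not pass without control 2 (edgeR adjusted p = 0.0605), control 3 (0.0781), control 4 (0.0547) or graft 2 (0.077), nor without controls 3 and 4 together (0.137).

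Hoxd4, with the most counts of the rows chosen by name (1738), works in the hindbrain and neck region. It read, in controls 1 to 4, 28.2, 21.4, 25.8 and 12.7 CPM, against 14, 8.11, 18.1 and 13.2 CPM in grafts 1 to 4. Control 4 lay among the grafts, and the change of -0.73 ± 0.29 (log2, SE) did not pass (edgeR adjusted p = 0.0684). It passed without control 4 (edgeR adjusted p = 0.0227) or graft 3 (0.0475), and with DESeq2 (0.0359) or limma voom (0.0449). Hoxd3 varied more, from 2.43 to 8.47 CPM in controls and from 0.901 to 3.6 CPM in grafts, and its change of -1.06 ± 0.48 did not pass (edgeR adjusted p = 0.102). Hoxd1, Hoxd12 and Hoxd13 had 0 counts.

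Hoxd8 is absent from the rows chosen by name, because the table holds it as LOC100912936, the number under which the RefSeq table lists Hoxd8. It had more counts than any named HOX row (3734). Controls 1 to 4 stood at 58, 59.3, 59.6 and 60.9 CPM and so were nearly equal, and grafts 1 to 4 stood at 31, 13.1, 16.6 and 27.9 CPM. The groups were far apart, and grafts 1 and 4 stood above grafts 2 and 3, the same libraries that were higher for Hoxd10. Hoxd9, which lies between them, did not share this order, with graft 3 at 7.12 CPM above graft 4 at 4.37 CPM. Hoxd8 fell, with a log2 change of -1.42 ± 0.25 (SE; adjusted p from edgeR = 0.00181). Read from number 3 to number 10, the changes along HOXD were -1.06 ± 0.48, -0.73 ± 0.29, -1.42 ± 0.25, -1.54 ± 0.31 and -1.90 ± 0.61 (log2, SE). A trend along the cluster was not tested.

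**Figure D2:**
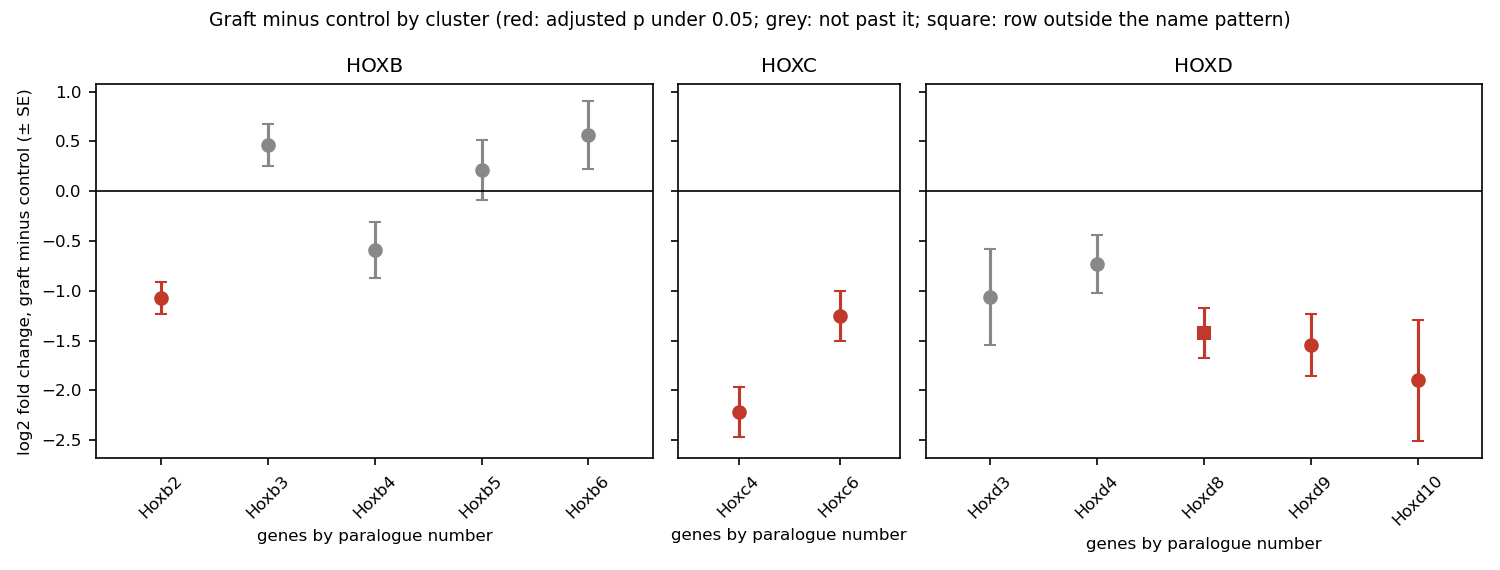
Log2 fold change, graft minus control, with its SE, for the tested genes in order of paralogue number within HOXB, HOXC and HOXD. Red points passed the adjusted threshold and grey ones did not, and the square is Hoxd8 from its LOC row. The passing genes lie between -2.22 and -1.07, and the positive values, up to 0.56, are all in HOXB and did not pass.

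HOXB was the cluster with the smallest difference. Its 10 rows summed to 39.3 ± 5.78 CPM (SD, n = 4) in controls and 33.8 ± 6.22 CPM in grafts, a ratio of 0.861, and the groups overlapped. Of its 5 tested genes 1 fell. Hoxb2, a regulator of hindbrain segments, read, in controls 1 to 4, 13.6, 13.6, 11.9 and 14.9 CPM, against 5.64, 6.91, 6.56 and 6.61 CPM in grafts 1 to 4. Libraries of a group were close together, with a clear gap between the groups. Hoxb2 fell, with a log2 change of -1.07 ± 0.16 (SE; adjusted p from edgeR = 0.000768).

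Its neighbour Hoxb3, the member of HOXB with the most counts (1298), had the opposite sign. Hoxb3, which acts in the hindbrain and pharyngeal arches, read, in controls 1 to 4, 13.3, 11.1, 9.37 and 9.33 CPM, against 11, 19.2, 14.5 and 14.6 CPM in grafts 1 to 4. Grafts 2, 3 and 4 were above every control and graft 1 was not. The change of 0.46 ± 0.21 (log2, SE) did not pass (edgeR adjusted p = 0.107), but passed without control 1 (edgeR adjusted p = 0.0489) and with library totals alone (0.03). Hoxb4, known from blood stem cells and the neck region, went from 11 ± 3.23 to 7.35 ± 1.95 CPM (SD, n = 4). Its groups overlapped and its change of -0.59 ± 0.28 did not pass (edgeR adjusted p = 0.112). Hoxb5 at 0.21 ± 0.30 (edgeR adjusted p = 0.596) and Hoxb6 at 0.56 ± 0.34 (edgeR adjusted p = 0.211) also did not pass. Hoxb7 had 63 counts in all, 21 in controls and 42 in grafts, and was not tested. Hoxb8 had 10 counts and Hoxb9 1, and Hoxb1 and Hoxb13 had 0.

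Ratios of neighbouring genes within a library do not depend on how libraries are scaled, and 8 pairs of tested rows next to each other among those chosen by name were compared (Hoxc5, not tested, lies between Hoxc4 and Hoxc6, and Hoxd8 between Hoxd4 and Hoxd9). The log2 ratio of Hoxb3 to Hoxb2 counts was -0.34 ± 0.26 (SD, n = 4) in controls and 1.18 ± 0.21 in grafts, a difference of 1.52 that was present in all 4 grafts (exact permutation test, two-sided p = 0.0286, the smallest p that 4 against 4 allows; Benjamini-Hochberg adjusted over the pairs 0.0572). The ratio of Hoxb4 to Hoxb3 was lower in grafts by a difference of -1.02, that of Hoxb5 to Hoxb4 higher by 0.85, and that of Hoxc6 to Hoxc4 higher by 0.99, each with no overlap of the groups and the same exact permutation p = 0.0286 (adjusted 0.0572). The HOXB pairs among these share Hoxb3 or Hoxb4. A shift of either gene moves both ratios that hold it, so these pairs are not separate observations. No pair passed the adjusted threshold, which the smallest p allows only if at least 5 of the 8 pairs reach it. For Hoxd9 to Hoxd4 the difference was -0.89 (exact permutation p = 0.0857), and for Hoxb6 to Hoxb5, Hoxd4 to Hoxd3 and Hoxd10 to Hoxd9 it was 0.27, 0.36 and -1.02 (exact permutation p = 0.629, 0.486 and 0.457). With the Hoxd8 row added there were 10 pairs. The log2 ratio of Hoxd8 to Hoxd4 was 1.49 ± 0.54 (SD, n = 4) in controls and 0.70 ± 0.58 in grafts (exact permutation p = 0.0857), and that of Hoxd9 to Hoxd8 was -1.79 ± 0.35 and -1.88 ± 0.60 (exact permutation p = 0.971). The groups overlapped in both, and the adjusted p of the 4 pairs without overlap became 0.0715 (exact permutation test). The pairs were formed after the values of the genes had been seen.

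HOXB thus took a larger part of the counts of the rows chosen by name in grafts. Its share, with Hoxd8 left out, was, in controls 1 to 4, 39.6%, 37.7%, 35.7% and 39%, against 43.6%, 70.5%, 51% and 55.5% in grafts 1 to 4. All grafts were above all controls, and graft 2 stood highest. The HOXC share was 13.4% to 21.3% in controls and 6.71% to 10.4% in grafts. The HOXD share averaged 45% ± 4.45 (SD, n = 4) in controls and 35.9% ± 10.1 in grafts, from 22.2% in graft 2 to 45.1% in graft 1, and the groups overlapped. With Hoxd8 counted in, the HOXB share was 22.2% to 26.5% in controls and 28.7% to 57.5% in grafts, still without overlap. The HOXD share was then 65.3% ± 1.66 (SD, n = 4) in controls and 52.2% ± 11.5 in grafts, with graft 1 at 63.9% above the lowest control at 63.5%. These shares add up to the whole, so a larger share of one cluster goes with smaller shares of the others. They are not corrected for gene length, and levels of different genes or clusters are for that reason not compared with each other.

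By paralogue number the summed level was lower in grafts for numbers 2, 4, 6, 9 and 10, with ratios of graft to control of 0.478, 0.546, 0.529, 0.345 and 0.258. It was close to 1 for numbers 3 (1.08) and 5 (1.02). Some of these sums are nearly those of a single gene. All 135 counts of number 10 were from Hoxd10, 1067 of 1069 for number 9 from Hoxd9, and 911 of 927 for number 2 from Hoxb2. Number 7 had 22 counts in controls and 42 in grafts (ratio 1.52), with overlap of the groups. Number 8 had a ratio of 0.874 on 15 counts without Hoxd8, and went from 59.6 ± 1.10 to 22.3 ± 8.77 CPM (SD, n = 4) with it, a ratio of 0.374. Hoxd8 made up nearly all of that sum. Number 4 summed to 41.1 ± 9.59 CPM (SD, n = 4) in controls and 22.4 ± 4.29 CPM in grafts. Its lowest control, 28.9 CPM, was just above its highest graft, 28.5 CPM. With library totals alone their order is reversed, with 155 of 5981520 counts in control 4 and 356 of 10533451 in graft 3. In number 3 the HOXB and HOXD members had opposite signs, and in numbers 4 and 6 those of HOXC passed and those of HOXB did not. Of the 4 rows of number 13, 2 of number 12 and 1 of number 11, none had a count. For each of them a count of 0 leaves room for up to 3 counts in a library, 0.182 to 0.56 CPM, a limit that covers counting error only.

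**Figure D3:**
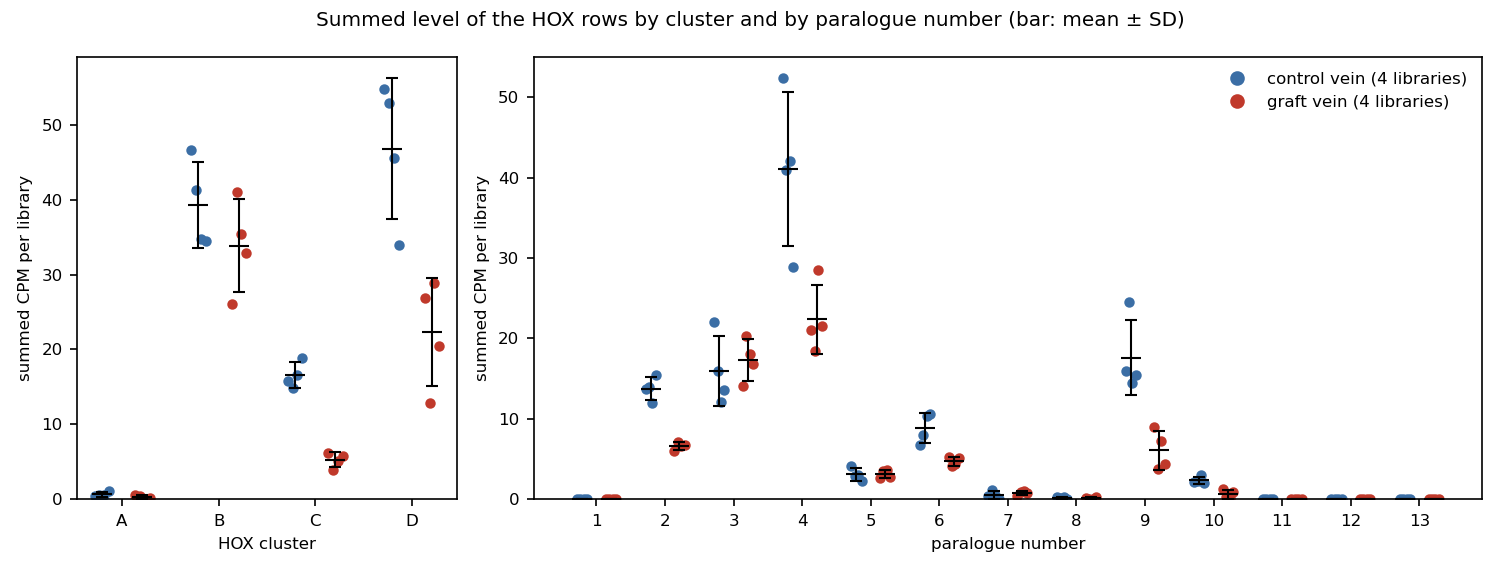
CPM summed over the HOX rows of each cluster (left) and of each paralogue number (right) in every library, controls in blue and grafts in red, with mean and SD as black bars (n = 4 per group). HOXC and HOXD are lower in grafts, HOXB overlaps, HOXA and numbers 7 and 11 to 13 are at or near 0. Hoxd8 (LOC100912936) is not a row chosen by name and is left out of both panels, so number 8 is near 0 in the plot.

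The HOXA cluster had almost no counts in either group. Its 10 rows held 39 counts in all libraries together, of which Hoxa3 had 20, Hoxa2 had 16, and Hoxa5, Hoxa6 and Hoxa7 had 1 each. Hoxa3 had, in controls 1 to 4, 4, 2, 4 and 3 counts, against 4, 2, 0 and 1 in grafts 1 to 4, and was not tested. Hoxa9, Hoxa10, Hoxa11 and Hoxa13 had 0. Hoxa4, held in the table as LOC100912525, had 7 counts, and Hotairm1, a noncoding RNA of the cluster held as LOC102548178, had 1. The RefSeq table gives Hoxa2 and Hoxa9 older names that end in l (Hoxa2l and Hoxa9l), and it lists the row LOC100911668 as Hoxa10 beside the row named Hoxa10. Where an annotation holds near-identical copies, reads that fit both may be dropped in counting. Whether HOXA transcripts were rare or were not counted cannot be told apart, and the zeros are uncertain. Hoxc11 and Hoxd11, also held under LOC numbers (LOC100911859 and LOC102553842), had 0 counts.

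Within the clusters 1 noncoding row had enough counts for the test. LOC102550580, a long noncoding RNA that overlaps Hoxb3 in the RefSeq table, read, in controls 1 to 4, 4.2, 7.77, 3.76 and 1.68 CPM, against 2.31, 1.2, 0.88 and 1.03 CPM in grafts 1 to 4, and control 4 lay below graft 1. LOC102550580 fell, with a log2 change of -1.69 ± 0.48 (SE; adjusted p from edgeR = 0.0189). It did not pass without control 2 (edgeR adjusted p = 0.0647), graft 3 (0.0515) or graft 4 (0.054). Strand use in counting is not given in the sources used here, so its reads and those of Hoxb3 may not be told apart where they overlap. The microRNA rows Mir10a, beside Hoxb4, and Mir10b, within Hoxd4, had 20 and 6 counts. Mir196a, Mir196b, Mir196c and Mir615 had 0.

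Markers of cell types also differed between the groups. Smooth muscle markers summed to 13100 to 21700 CPM in controls and 1820 to 3470 CPM in grafts, with all 8 lower and past the threshold. The 8 fibroblast markers summed to 82200 to 137000 CPM in controls and 33400 to 73400 CPM in grafts (1 rose, 3 fell, 4 did not pass). Col1a1 and Col3a1 made up most of that sum, and Pdgfra, Dpt, Pi16 and Fbln1 did not pass. The 8 endothelial ones summed to 3130 to 4880 and 1450 to 1780 CPM (4 fell, 4 did not pass). Vwf was the largest part of that sum, and Cdh5, Tie1, Kdr and Egfl7 did not pass. The 7 adipocyte ones summed to 397 to 2060 and 126 to 171 CPM (7 fell). Of all genes tested 21.3% fell and 21% rose. Macrophage markers went the other way, from 139 to 193 CPM in controls to 736 to 1180 CPM in grafts (7 of 7 rose), as did the 6 T cell markers (2.61 to 8.07 against 24.8 to 53.3 CPM; 5 of 5 tested rose). Of the 5 mesothelium markers 2 were tested and rose. Msln, at 0 in every control, made up most of the list's sum of 48.8 to 77.1 CPM in grafts (0.15 to 0.92 CPM in controls), and Wt1 was at 0 in every control and at 3.60 ± 0.435 CPM (SD, n = 4) in grafts. Upk3b was at or near 0 in both groups, Lrrn4 was at 0 in controls and at 0.24 to 1.4 CPM in grafts, and Krt19 stood at 0.46 ± 0.326 and 0.63 ± 0.102 CPM. Of these markers Cidec and Lep passed the low-count filter through the controls, and Msln, Wt1, Cd2 and Cd3d passed it through the grafts. The part of these cell types in the HOX differences was not tested.

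Genes of the partner proteins changed in both directions, more of them downward. Of 9 such genes 8 were tested, of which 4 fell (Pbx3, Meis2 and Pknox2 among them), 1 rose (Meis3) and 3 did not pass. The shares over all genes tested were 21.3% that fell and 21% that rose. Pknox2, a homeodomain protein that pairs with PBX, went from 26.6 ± 5.54 to 9.71 ± 1.64 CPM (SD, n = 4) and fell, with a log2 change of -1.46 ± 0.20 (edgeR adjusted p = 0.000426). Meis3 stood at 11.4 to 18.7 CPM in controls and 24.9 to 32.7 CPM in grafts, and rose by a log2 fold change of 1.03 ± 0.19 (edgeR adjusted p = 0.00211). Meis1, the member of that family best known with HOXA9 in blood cells, stood at 45.1 ± 7.73 and 37.8 ± 9.35 CPM and did not pass (log2 change of -0.26, edgeR adjusted p = 0.314).

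Of 18 genes of retinoic acid supply and response, 14 were tested. Of these 4 fell and 3 rose, the other 7 missed the threshold, and the median log2 change was -0.21. Over all genes tested 21.3% fell and 21% rose, so these counts lie near the background. The 4 that fell were Aldh1a1, Aldh1a2 and Aldh1a3, which make retinoic acid from retinal, and Rarb, a receptor whose own gene responds to retinoic acid. Aldh1a2 went from 10.4 ± 2.82 to 3.59 ± 2.18 CPM (SD, n = 4) and Rarb from 7.16 ± 3.17 to 3.34 ± 0.892 CPM. Aldh1a1 fell, with a log2 change of -3.55 ± 0.95 (SE; adjusted p from edgeR = 0.0138), but in controls 1 and 2 it was at 0.824 and 1.79 CPM, whereas controls 3 and 4 reached 19.5 and 11 CPM. The same controls 3 and 4 were high in the sums of the 5 Schwann cell markers (1360 and 1240 CPM, against 70.6 and 96.9 CPM) and of the 7 adipocyte markers (1700 and 2060 CPM, against 397 and 644 CPM), and the part of these cells was not tested. Without controls 3 and 4 it did not pass (log2 change of -0.90, edgeR adjusted p = 0.344), nor with limma voom (0.148). Among the genes that rose were the nuclear receptors Rara and Rxra. Rxra went from 25.3 ± 3.06 to 44.7 ± 2.06 CPM and rose by a log2 fold change of 0.82 ± 0.12 (edgeR adjusted p = 0.000755). Rarg, a retinoic acid receptor of skin and cartilage, stood at 68.9 ± 18.5 and 57.1 ± 4.13 CPM, and did not pass (edgeR adjusted p = 0.235). The number that fell was 1 without graft 1, 2 without graft 2 or control 4, 2 without controls 3 and 4, and 1 with library totals alone.

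**Figure D4:**
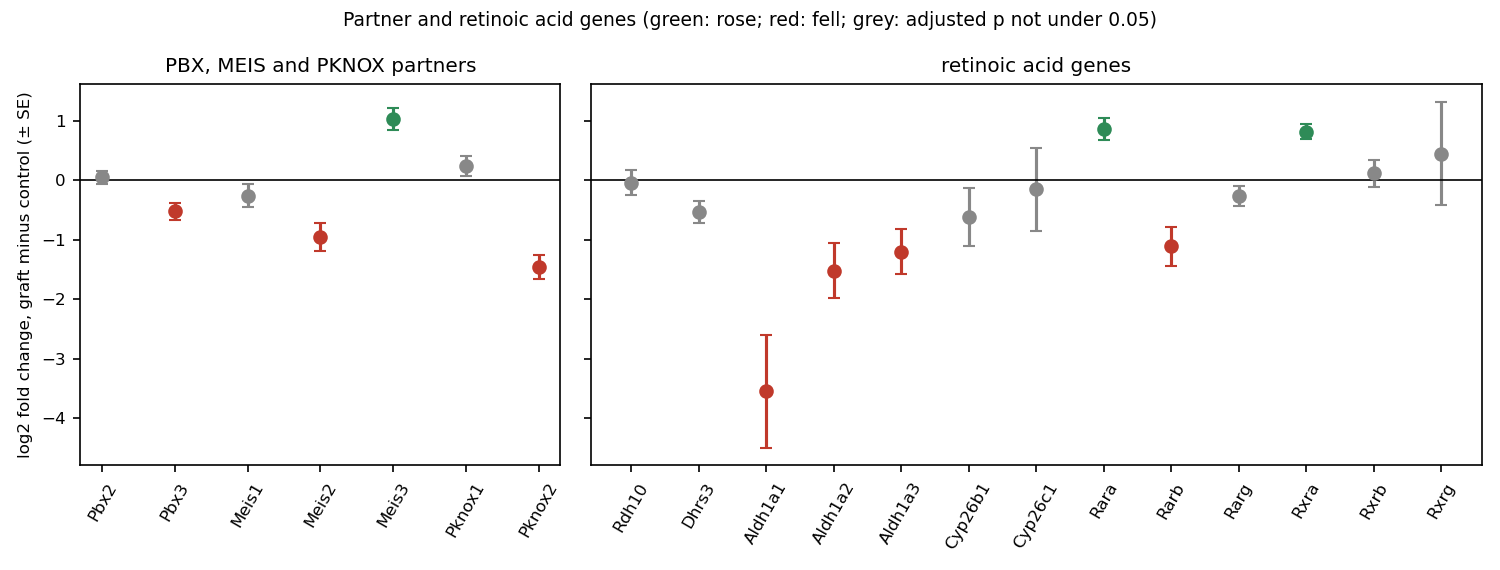
Log2 fold change, graft minus control, with its SE, for tested genes of the PBX, MEIS and PKNOX partners (left) and of retinoic acid supply and response (right). Green points rose, red points fell and grey points did not pass the adjusted threshold. Meis3 at 1.03 is the partner gene that rose, and Aldh1a1 at -3.55 has the widest SE of the genes that passed.

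Genes of the chromatin complexes that silence or keep up HOX transcription changed in both directions, mostly by small amounts. Of 22 Polycomb genes 20 were tested. Of these 8 fell and 4 rose, the other 8 missed the threshold, and the median log2 change was -0.21. Among all genes tested 21.3% fell and 21% rose. Cbx7, which reads the repressive histone mark, went from 40.6 ± 11 to 15.8 ± 2.95 CPM (SD, n = 4) and fell, with a log2 change of -1.36 ± 0.22 (SE; adjusted p from edgeR = 0.000991). Ezh2, the enzyme that writes the mark, went from 3.74 ± 0.436 to 6.98 ± 0.804 CPM and rose by a log2 fold change of 0.90 ± 0.20 (edgeR adjusted p = 0.00592). The 8 markers of cycling cells, in which Ezh2 is known to be high, summed to 87.5 to 135 CPM in controls and 258 to 431 CPM in grafts (7 rose), and their part was not tested. Phc3, a subunit of the first Polycomb complex, fell by 0.48 ± 0.10 (edgeR adjusted p = 0.00468), not past the threshold with library totals alone (0.112). The Polycomb falls numbered 5 without control 4, 3 without controls 3 and 4, and 2 with library totals alone.

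Of 10 genes of the MLL complex and of demethylases of the repressive histone mark, 2 fell, 2 rose and 6 did not pass. These counts were close to the 21.3% that fell and 21% that rose over all genes tested. Psip1, the chromatin anchor of the complex, went from 68.4 ± 10.4 to 24.5 ± 6.71 CPM (SD, n = 4) and fell, with a log2 change of -1.48 ± 0.22 (SE; adjusted p from edgeR = 0.000692). Dot1l, the histone H3 methyltransferase linked to MLL fusion proteins, rose by a log2 fold change of 0.87 ± 0.23 (edgeR adjusted p = 0.0122), but not past the threshold without controls 3 and 4 (0.0676). Kmt2a, which encodes MLL itself, went from 360 ± 9.97 to 266 ± 26.8 CPM and fell by 0.44 ± 0.11 (edgeR adjusted p = 0.0125). It did not pass with library totals alone (0.251) or without controls 3 and 4 (0.056). The falls in this list numbered 4 without control 1.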

How the data were processed

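RNA of 4 vein grafts and 4 control jugular veins was sequenced as total RNA. Reads were aligned with HISAT2 2.0.4 to Rnor_6.0, per the submitters' processing notes, and for the read counter, annotation and strand use the sources used here give nothing. The authors deposited whole-number counts per gene, with no further normalization seen in the values. Groups come from the sample titles, and no pair of libraries within a group was alike within sampling noise. The labels do not say that each library is a separate animal, so p-values measure the spread between these libraries, which may be technical.

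The test was run with edgeR 4.0.16 under R 4.3.3 (filterByExpr with minimum count 10, TMM factors, glmQLFit and glmQLFTest, Benjamini-Hochberg over 15464 genes, threshold 0.05). The standard error is the absolute log2 fold change over the square root of F. Alternatives used limma 3.58.1 (voom) and DESeq2 1.42.0. The procedure was tested on simulated data. All HOX rows are accounted for, with values in every library for those past the threshold and for the most counted one of each cluster. In each list of related genes the rule names the most abundant member and the 2 of smallest p (1 that rose and 1 that fell, if both exist), and other genes named were chosen after their values were seen. HOX members, lists and rules were chosen with earlier results of these data known. Sequences, gene order and older names are from RefSeq tables of build GRCr8. Some genes of these families are not reported here.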

Additional observations from a re-analysis of the deposited data

Results flagged for a closer look

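Of 24 groups of 4 libraries checked (11 tested HOX genes and Hoxd8, each in controls and grafts), 2 held a library far from the other 3, where chance gives about 1 in 20. Hoxd9 in control 2 stood at 24.5 CPM, with the nearest control at 16 and the lowest at 14.4 CPM. Hoxd10 in control 3 stood at 3.01 CPM, with the other controls from 2.05 to 2.19 CPM.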

How the results depend on the processing

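The edgeR tests were repeated under 17 alternatives (16 for Hoxb6 and Aldh1a1, which a minimum count of 20 left out): 3 other scalings, DESeq2, limma voom, no or a stricter low-count filter, a replicate block, controls 3 and 4 left out, and each library left out in turn. The count of HOX genes that fell ran from 4 to 6. Hoxb2, Hoxc4, Hoxc6, Hoxd9 and Hoxd8 passed in all 17, with log2 changes of -1.13 to -0.84, -2.4 to -2, -1.37 to -0.96, -1.79 to -1.31 and -1.61 to -1.2. HOX genes that rose numbered 1 with library totals alone and 0 to 1 with 1 library left out. No tested HOX gene changed sign. With library totals alone the falls numbered 2 for Polycomb, 1 for MLL complex and demethylase genes, 1 for retinoic acid and 3 for jaw and limb genes. With controls 3 and 4 left out Polycomb genes gave 2 rises and 3 falls, MLL complex and demethylase genes 0 rises and 1 fall (2 rises and 2 falls at an unadjusted p under 0.05, by edgeR), retinoic acid genes 2 falls and HOX-like class genes 2 rises. With no low-count filter HOX-like class genes gave 3 rises and jaw and limb genes 1. With 1 library left out the falls ran from 5 to 8 for Polycomb, from 2 to 4 for MLL complex and demethylase genes, from 1 to 4 for retinoic acid genes and from 3 to 6 for jaw and limb genes. The cause of these shifts was not tested.

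The titles number both groups 1 to 4 but the source names number them otherwise, so the pairs of grafts and controls are not settled. Deviations from the group means correlated across genes by -0.07, 0.18, 0.07 and 0.05 in the same-numbered pairs, and not every sample matched its own number best. With the replicate number as a block 4 HOX genes fell and 0 rose, and Hoxd10 had an edgeR adjusted p of 0.0512. The ratios of neighbouring HOX genes were recomputed under 9 settings that leave libraries out, chosen after seeing the data. For the 4 with no overlap the sign could not change, because all remaining grafts stay on the same side of all remaining controls. Their kept sign is therefore no sign of stability. The ratio of Hoxb6 to Hoxb5, not past the threshold, went to -0.08 without control 1. Low counts limit what can be said of the 11 HOX rows with counts that were not tested and the 13 at 0.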

Other observations

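Other families of homeobox genes were looked up beside HOX, from lists chosen with earlier results of these data known. Of 13 genes of the wider HOX-like class, 8 had no count in any library and 2 were tested, and these 2 paralogues moved in opposite directions. Meox2, a homeobox gene of vessel walls and muscle precursors, read, in controls 1 to 4, 137, 240, 171 and 186 CPM, against 39.4, 39.7, 48.1 and 41.9 CPM in grafts 1 to 4, and fell, with a log2 change of -2.12 ± 0.17 (SE; adjusted p from edgeR = 3.68e-05). Meox1, known from the embryonic somites, stood at 0.674 to 3.68 CPM in controls and 9.47 to 15.4 CPM in grafts, and rose by a log2 fold change of 2.19 ± 0.44 (edgeR adjusted p = 0.00344).

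Of 20 homeobox and T-box genes of jaw and limb mesenchyme, 10 were tested, 5 fell and 0 rose by edgeR (0 also at an unadjusted p under 0.05, by DESeq2 and by limma voom), with a median of -1.28. For all genes tested by edgeR the shares were 21.3% that fell and 21% that rose. Shox2, a gene of limb and heart inflow tissue, read, in controls 1 to 4, 102, 123, 63.7 and 82.7 CPM, against 19.8, 10.7, 11.4 and 19.7 CPM in grafts 1 to 4, and fell, with a log2 change of -2.58 ± 0.28 (SE; adjusted p from edgeR = 0.000114). Msx2 fell from 3.19 ± 0.38 to 0.262 ± 0.103 CPM (SD, n = 4; log2 change of -3.56, edgeR adjusted p = 8.99e-05). Msx2 was below the filter's level of 0.79 CPM in every graft and so passed the filter through the controls. Dlx2, also among the 5 that fell, stood at 0.0642 to 1.12 CPM in grafts and passed the filter through the controls as well. Prrx1, a gene of connective tissue, fell by 0.60 ± 0.19 (edgeR adjusted p = 0.0273), not past the threshold without control 2 (0.084) or graft 2 (0.0648) or with library totals alone (0.0765). The falls in this list numbered 3 without control 2, without graft 2 or with library totals alone. In the same grafts all 8 smooth muscle markers fell, while of the 8 fibroblast markers 3 fell (Dcn, Col1a1 and Col3a1), 1 rose (Lum) and 4 did not pass, and their part was not tested.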
